A study of Mus musculus with 2 samples.

Results

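The genes described here mark enteric glia and the Schwann cell lineage. They were chosen by name, and they are Sox10, S100b, Gfap, Erbb3, Foxd3, Fabp7, Cdh19 and Ngfr. All 8 were found, by gene ID, among the 69691 features of each gene table. The tissue was whole stomach of newborn B6NCrl mice, and total RNA of 2 pups was sequenced, each as 1 library. The pups had the same dam and were taken at day 0 after birth, and the labels give neither a treatment nor an altered allele. The pups are 1 group, named pup 2 and pup 1 as the labels number them. Depth was 49983574 expected counts in pup 2 and 51524479 in pup 1. Levels are in TPM, the read count divided by transcript length and scaled to a common total, so that levels of different genes can be compared. An error after ± is the SD of the pups (n = 2), and it covers the spread between 2 stomachs of 1 litter. In bulk RNA, fewer cells of a type and less RNA per cell cannot be told apart.

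Enteric glia surround the neurons of the gut wall, and Schwann cells ensheath the nerves that enter it. Both arise from neural crest cells, and both keep the transcription factor SOX10. Cells of this lineage receive neuregulin through the receptor ERBB3, which signals in a pair with ERBB2, and they carry the neurotrophin receptor NGFR, also called p75. Early cells of the lineage are known for FOXD3, CDH19 and FABP7, and more mature glia for S100B and the filament protein GFAP. Several of these genes are not made by glia alone. Epithelial cells also make Erbb3, and some mesenchymal and basal epithelial cells make Ngfr.

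The most abundant of the 8 genes was Fabp7, which encodes the brain-type fatty acid binding protein of radial glia and glial precursors. It stood at 31.7 TPM in pup 2 and 26.8 TPM in pup 1. Erbb3 followed at 16.2 and 15.9 TPM in pups 2 and 1. These genes together held 80.5% of the summed TPM of the 8 genes in pup 2 and 80.3% in pup 1. The other 6 stood below 5 TPM, and Gfap, Cdh19 and Foxd3 below 1 TPM in both pups. The span between the highest and the lowest of the 8 was 59.8-fold in pup 2 and 47.0-fold in pup 1.

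**Figure D1:**
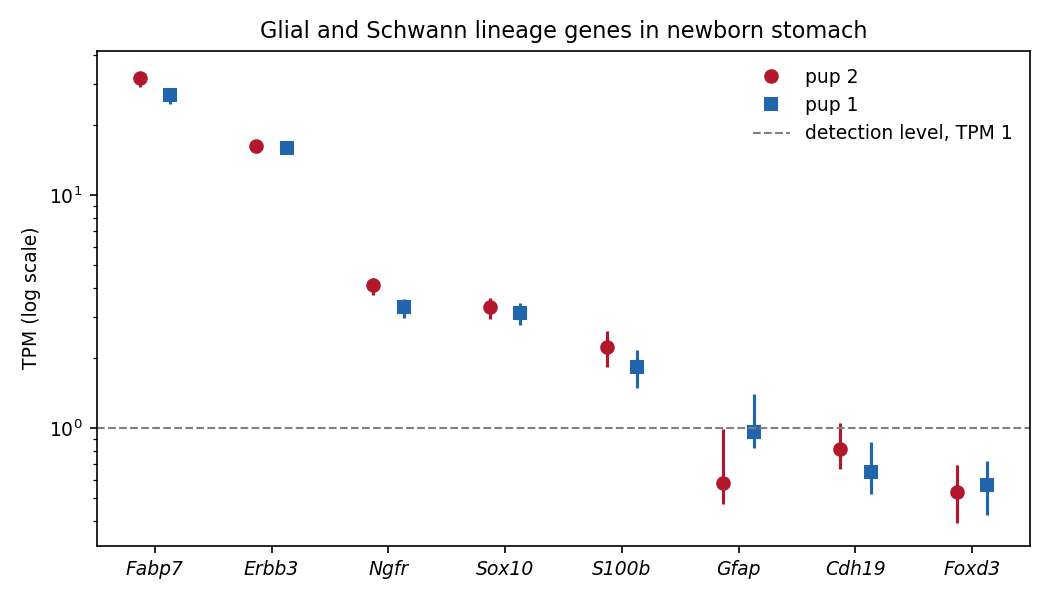
TPM (log scale) of the 8 genes in pup 2 (circles) and pup 1 (squares), ordered by mean level; vertical lines are the deposited credibility intervals, and the dashed line is the detection level of 1 TPM. Fabp7 stood highest at 31.7 and 26.8 TPM, and Gfap, Cdh19 and Foxd3 lay below the line in both pups.

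At a detection level of 1 TPM in both pups, 5 of the 8 genes were detected, against 61.2% of the 21474 protein-coding genes. The median over the 8 genes was 2.77 TPM in pup 2 and 2.48 TPM in pup 1. The same median over all protein-coding genes was 3.64 TPM in pup 2 and 3.49 TPM in pup 1. Fabp7 stood above 82.1% of protein-coding genes and Erbb3 above 72.9%. Ngfr, Sox10 and S100b lay near the middle, above 50.4%, 48.6% and 43.8%. Gfap, Cdh19 and Foxd3 stood above 36.2%, 35.9% and 34.2% of them.

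Some of the 8 genes have relatives that were far more abundant in this tissue, so the sequences that set them apart are shown first. The annotated transcripts of the 8 genes shared no stretch of 100 bases, about the length of a read, with a transcript of any other gene on either strand. Runs of at least 50 shared bases were found for Ngfr, with 122 genes, and for Foxd3, with 2 genes. For Sox10, Fabp7 and S100b, the 120 coding bases most like the closest relative are printed from GENCODE M21 transcripts (build mm10, 5′ to 3′), with the bases that differ in capitals. Sox9 was the closest relative of Sox10, with 63.2% of aligned coding bases identical, and it had 7.15 times its mean TPM. In the stretches below, at chr15:79163402-79163521 (minus strand) and chr11:112782783-112782902 (plus strand), 112 of 120 bases were identical and the longest identical run was 44 bases.
Sox10: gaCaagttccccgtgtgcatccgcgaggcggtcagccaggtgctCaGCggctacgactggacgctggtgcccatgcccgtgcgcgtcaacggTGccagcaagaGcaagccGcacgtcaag
Sox9: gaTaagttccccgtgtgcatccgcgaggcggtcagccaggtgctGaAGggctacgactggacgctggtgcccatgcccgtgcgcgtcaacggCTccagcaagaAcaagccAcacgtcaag
A read of 100 bases across any part of this stretch therefore meets a base that differs.

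Fabp3, the heart-type fatty acid binding protein, was the closest relative of Fabp7, at 66.2% of aligned coding bases, and it had 2.31 times its mean TPM. The coding starts of these genes are spliced from 2 exons each, within chr10:57785009-57785552 for Fabp7 and chr4:130308778-130312337 for Fabp3, both on the plus strand. They differed at 29 of 120 bases.
Fabp7: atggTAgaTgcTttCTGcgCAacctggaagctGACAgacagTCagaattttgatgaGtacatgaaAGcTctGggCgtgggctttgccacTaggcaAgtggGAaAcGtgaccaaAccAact
Fabp3: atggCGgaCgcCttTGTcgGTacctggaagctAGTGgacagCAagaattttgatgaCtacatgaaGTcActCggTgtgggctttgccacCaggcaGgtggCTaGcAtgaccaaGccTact
S100a1 was the closest relative of S100b, at 63.2% of aligned coding bases, and it had 163 times the mean TPM of S100b. The most alike stretches lie at chr10:76257041-76257160 (plus strand) and chr3:90512008-90512127 (minus strand) and differed at 39 of 120 bases.
S100b: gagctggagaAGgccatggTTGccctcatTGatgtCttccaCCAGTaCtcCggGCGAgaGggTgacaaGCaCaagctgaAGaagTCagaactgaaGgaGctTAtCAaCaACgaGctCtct
S100a1: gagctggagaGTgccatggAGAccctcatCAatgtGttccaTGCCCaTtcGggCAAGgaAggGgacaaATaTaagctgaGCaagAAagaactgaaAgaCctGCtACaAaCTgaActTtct
The longest identical runs in these pairs of stretches were 14 and 10 bases.

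Among the receptors, Erbb3 (chromosome 10, 128567523 to 128589652, minus strand, 28 exons) had 3807 expected counts in pup 2 and 3900 in pup 1. Its TPM was 16.1 ± 0.177, the smallest relative spread of the 8 genes at a coefficient of variation of 1.10%. Ngfr (chromosome 11, 95568818 to 95587735, minus strand, 6 exons) had 548 counts and 4.12 TPM in pup 2, and 458 counts and 3.31 TPM in pup 1. Pup 2 was the higher for Ngfr, and the deposited credibility intervals of 3.73 to 4.41 TPM in pup 2 and 2.98 to 3.57 TPM in pup 1 did not overlap.

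Lists of the partners of these receptors were drawn up by name. Of the 4 ErbB receptors, Erbb2, the usual partner of ERBB3, was the highest at 26.4 TPM in pup 2 and 23.1 TPM in pup 1, with intervals that did not overlap. Erbb4, the coding sequence most like Erbb3 at 58.3% of aligned bases, had only 4 and 2 counts in pups 2 and 1. The neuregulin ligands stood low. Nrg1 had 1.19 TPM in pup 2 and 1.27 TPM in pup 1, and Nrg2, Nrg3 and Nrg4 fell short of 1 TPM in at least 1 pup. Nrg2 had 88 counts in pup 2 and 34 in pup 1, a ratio of depth-scaled reads of 2.67 with an exact 95% interval of 1.78 to 4.09 that covers counting error only. Of the 9 neurotrophins and receptors, 7 were detected. Sort1, which encodes the co-receptor sortilin, led them at 8.55 TPM in pup 2 and 6.98 TPM in pup 1, and its intervals did not overlap. Intervals were apart for 21.2% of all genes with a mean count of at least 100. Ntf3, which encodes neurotrophin-3, stood at 5.70 and 6.97 TPM in pups 2 and 1. Ntrk2, which encodes a receptor of BDNF, stood at 0.70 TPM in pup 2 and 0.68 TPM in pup 1.

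Among the transcription factors, Sox10 (chromosome 15, 79154908 to 79165240, minus strand, 4 exons) had 344 counts and 3.31 TPM in pup 2, and 338 counts and 3.13 TPM in pup 1. The pups lay close together, at a mean of 3.22 ± 0.127 TPM. Foxd3 (chromosome 4, 99656299 to 99658622, plus strand, 1 exon) was the lowest of the 8 genes. It had 47 counts and 0.53 TPM in pup 2, and 52 counts and 0.57 TPM in pup 1, so its pups overlapped widely within counting error. The exon of Foxd3 holds the 89 bases of the predicted microRNA gene Gm23366, which was listed at 0 counts in both pups.

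Other neural crest factors gave a mixed picture. Of 12 such factors, Sox10 and Foxd3 included, 9 were detected. Sox9, which epithelial and mesenchymal cells also make, led at 22.9 TPM in pup 2 and 23.2 TPM in pup 1. Sox8, the third gene of the SoxE family, stood at 1.44 and 1.35 TPM in pups 2 and 1. Pax3, a factor of early crest and melanocyte precursors, had 1 count in pup 2 and 2 in pup 1, at or under the floor of 3 counts. Snai2 stood at 16.8 TPM in pup 2 and 12.3 TPM in pup 1 with intervals that did not overlap. Ets1 was lower, at 7.52 TPM in pup 2 and 8.47 TPM in pup 1, also with intervals apart. These were 2 of the 12 factors, or 2 of the 9 detected ones, which alone had a mean count of at least 100. The background was 21.2% of all genes with such a count. Within the FoxD family Foxd3 was the highest, since Foxd1, Foxd2 and Foxd4 had at most 5 counts in either pup.

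Among the remaining genes of the 8, Fabp7 (chromosome 10, 57784881 to 57788450, plus strand, 4 exons) had 889 counts in pup 2 and 782 in pup 1. Its mean was 29.25 ± 3.48 TPM. Pup 2 was the higher, and the intervals of 29.3 to 33.4 TPM in pup 2 and 24.7 to 28.4 TPM in pup 1 did not overlap. S100b (chromosome 10, 76253853 to 76261159, plus strand, 3 exons) encodes a calcium-binding protein that glia and some other cells make. It had 123 counts and 2.23 TPM in pup 2, and 105 counts and 1.83 TPM in pup 1. The intervals of the pups overlapped. The gene span of S100b is crossed by Dip2a on the other strand, but their exons share no base. Gfap (chromosome 11, 102887336 to 102900912, minus strand) had 58 counts and 0.58 TPM in pup 2, and 101 counts and 0.96 TPM in pup 1. It was the gene with the widest relative spread of the 8, at a coefficient of variation of 34.9%, and pup 1 was the higher. Cdh19 (chromosome 1, 110888326 to 110977584, minus strand, 12 exons) encodes a cadherin of Schwann cell precursors. It had 116 counts and 0.81 TPM in pup 2, and 91 counts and 0.65 TPM in pup 1, with overlapping intervals.

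Each of the 8 genes was set beside its gene family. Fabp7 stood below Fabp5, the epidermal type, which had 91.3 times its mean TPM, and below Fabp1, Fabp3 and Fabp4. S100b stood far below S100a6 and S100a11, with 880 and 855 times its mean TPM, and 14 of the 16 S100 genes were detected. Gfap was the lowest of the type III intermediate filament genes. Vim and Des, the filament genes of mesenchymal and muscle cells, had 351 and 286 times its mean TPM, and Prph, that of neurons, 26.4 times. Of 13 type II cadherins, Cdh11, a mesenchymal cadherin, had 39.5 times the mean TPM of Cdh19, and only Cdh5, Cdh6 and Cdh11 were detected. Among the death-domain receptors, Tnfrsf1a had 17.7 times the mean TPM of Ngfr.

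**Figure D2:**
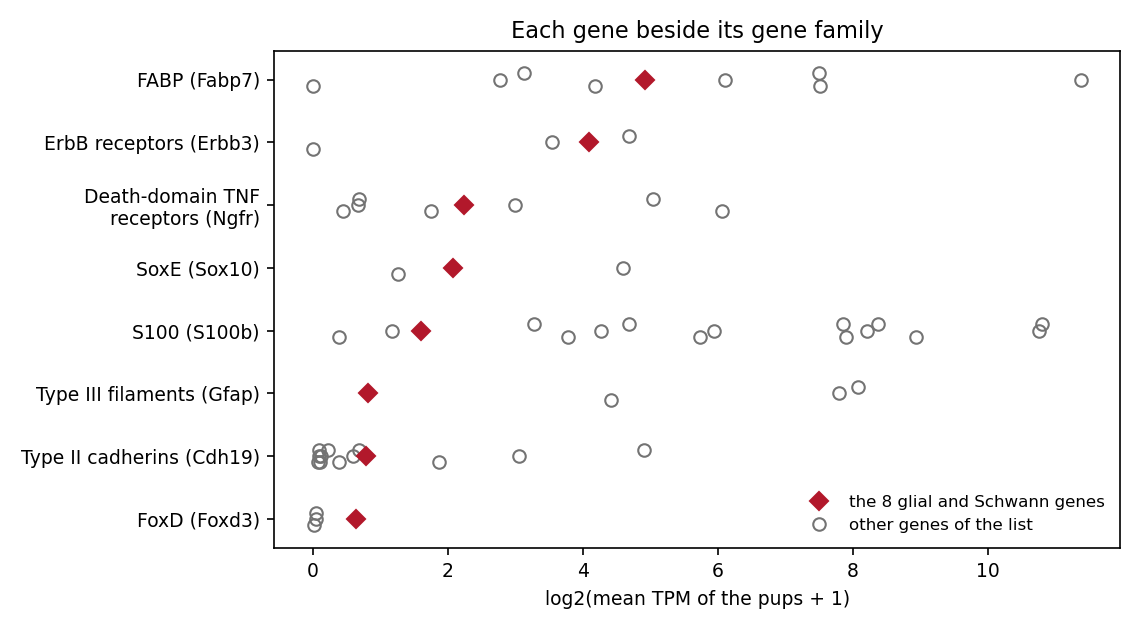
Mean level of each of the 8 genes (filled diamonds) and of the other genes of its family (open circles), as log2(mean TPM of the pups + 1). Foxd3 was the highest of the FoxD genes, and Gfap, at a mean of 0.77 TPM, the lowest of the type III filament genes.

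The order of the 8 genes by mean TPM was Fabp7, Erbb3, Ngfr, Sox10, S100b, Gfap, Cdh19 and Foxd3. Fabp7 and Erbb3, Erbb3 and Ngfr, Sox10 and S100b, and S100b and Gfap were apart by their credibility intervals in both pups. Ngfr lay above Sox10 beyond the intervals in pup 2 but not in pup 1. Gfap and Cdh19 changed places between the pups, and Cdh19 and Foxd3 had overlapping intervals in both. Set against Sox10, the Fabp7 level was 9.58 times as high in pup 2 and 8.56 times in pup 1, and the Erbb3 level 4.89 and 5.09 times. The Foxd3 level was 0.160 of the Sox10 level in pup 2 and 0.182 in pup 1.

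The pups were compared by the rule that the deposited intervals do not overlap, the TPM differs at least 2-fold and the mean count is at least 100. Of the 8 genes, 6 had enough counts, and 0 of these 6 differed, against a background of 0.423% of the 13951 genes with enough counts. Of those genes 0.301% were higher in pup 2 and 0.122% lower in pup 2. By the interval criterion alone 2 genes were apart, Fabp7 and Ngfr. They were 1.18-fold and 1.24-fold higher in pup 2, against a background of 21.2% of the same genes in either direction. Without the minimum count they were still the only ones apart of the 8, against 7.25% of all 43346 Ensembl genes. On the scale log2 of TPM + 1, the differences of pup 2 minus pup 1 ran from -0.31 for Gfap to 0.25 for Ngfr. The median over the 8 genes was 0.10, and over the 13138 detected protein-coding genes 0.03. The level was higher in pup 2 for 6 of the 8 genes, against 58.3% of the detected protein-coding genes. For Ngfr, 11.8% of the detected protein-coding genes had a larger difference in either direction, and for Erbb3 86.9% did. With 1 library per pup these differences have no replicate check.

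**Figure D3:**
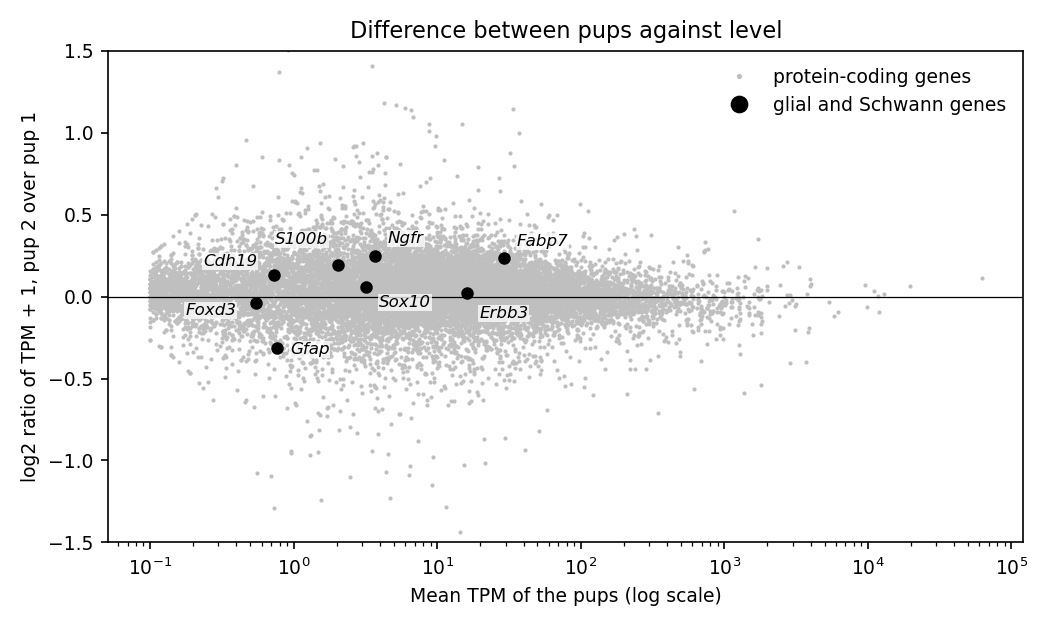
Difference between pups, as log2 of the ratio of TPM + 1 in pup 2 over pup 1, against the mean TPM (log scale), for protein-coding genes with a mean TPM of at least 0.1 (grey) and the 8 genes (black); 17 of the 16058 genes lie beyond the vertical axis. The 8 genes lie between -0.31 and 0.25.

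The ratio of depth-scaled reads, with an exact binomial 95% interval for counting error alone, excluded 1 for 3 of the 8 genes, against a background of 34.9% of the 18492 genes with a mean count of at least 10. These were Fabp7 at 1.17 (1.06 to 1.29), Ngfr at 1.23 (1.09 to 1.40) and Gfap at 0.592 (0.421 to 0.826). For Erbb3, the most deeply counted of the 8 genes, the ratio was 1.01 with the narrow interval of 0.962 to 1.05. For Foxd3 the interval of 0.614 to 1.41 was too wide to show a difference of the size seen for Ngfr.

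The transcript tables split the Gfap level further. They held 3 Gfap transcripts. Gfap-201 codes for the main form of the protein, known as GFAP-alpha. Gfap-202 keeps the same first 7 coding exons and then reads on in an exon of its own, which gives the tail known as GFAP-delta or GFAP-epsilon. The transcripts share 1176 exonic bases, and 1472 bases of Gfap-201 and 1424 of Gfap-202 are their own, so reads over their ends differ. The own last exon of Gfap-202 lies within an intron of Gfap-201, however. In total RNA, reads of unspliced Gfap-201 RNA could therefore be counted as Gfap-202, and this was not tested.

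Gfap-201 stood at 0.34 TPM in pup 2 (34.2 estimated counts, interval 0.216 to 0.475) and at 0.77 TPM in pup 1 (81.6 estimated counts, interval 0.596 to 0.942). Pup 1 was the higher, and the intervals did not overlap. Gfap-202 stood at 0.24 TPM in pup 2 and 0.19 TPM in pup 1, with overlapping intervals. Gfap-203, a short noncoding transcript, was listed at 0 counts in both pups. Gfap-201 thus held 58.5% of the Gfap TPM in pup 2 and 80.5% in pup 1, a mean of 69.5 ± 15.6%. Over transcripts with a mean count of at least 10, a rule chosen after the values were seen, 9 transcripts of the 8 genes could be compared. Only Gfap-201 had intervals apart and a 2-fold difference, against a background of 1.27% of 43055 transcripts in either direction and 0.506% lower in pup 2. Its ratio of TPM in pup 2 over pup 1 was 0.442, and it rests on fewer than 100 counts in each library.

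Of the other genes, 5 had a single annotated transcript in the tables. Fabp7-201, the main form, held 99.3% of the Fabp7 TPM in pup 2 and 98.9% in pup 1. Cdh19-201 held 93.0% of the Cdh19 TPM in pup 2 and 85.9% in pup 1, a mean of 89.4% that was 84.4% with the deposited posterior means. The noncoding Cdh19-202 had only 1.56 and 2.61 estimated counts in pups 2 and 1.

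**Figure D4:**
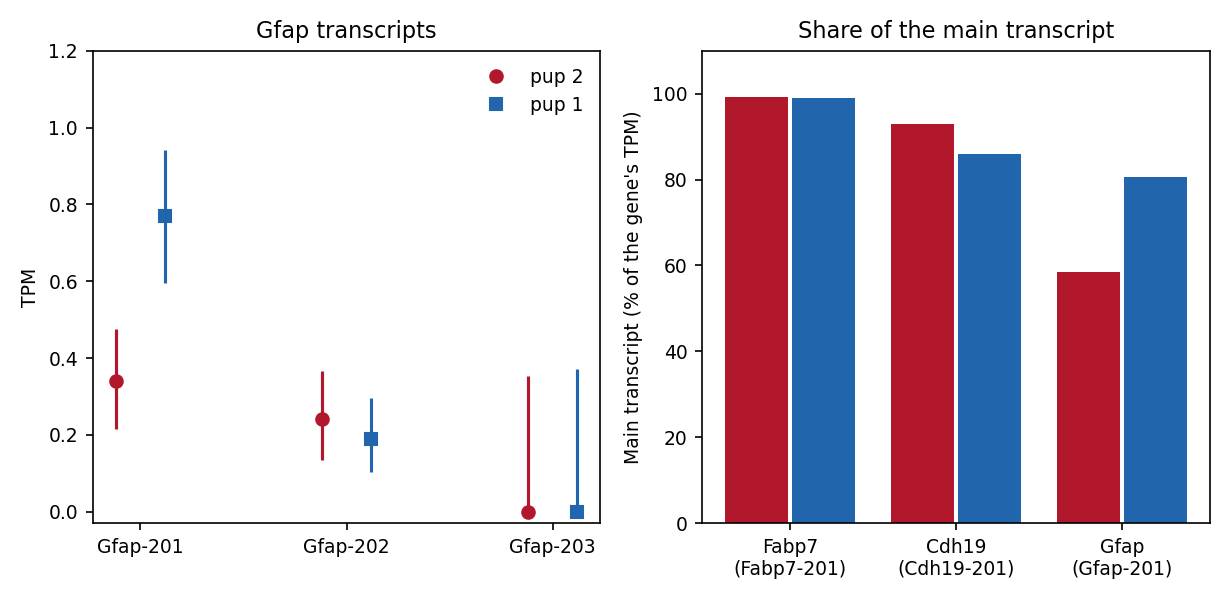
Left, TPM of the 3 Gfap transcripts in pup 2 (circles) and pup 1 (squares), with the deposited credibility intervals as lines; right, the main transcript as a percent of the TPM of its gene in pup 2 (left bars) and pup 1 (right bars). Gfap-201 stood at 0.34 TPM in pup 2 and 0.77 TPM in pup 1, and the main share of Gfap was 58.5% and 80.5%.

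The label was checked against further genes of the lineage. Entpd2, an ATP-splitting enzyme of the glial surface, stood at 20.0 and 18.2 TPM in pups 2 and 1. Of 18 other genes of glia and Schwann cells, 14 were detected, with a median of 7.77 TPM in pup 2 and 8.65 TPM in pup 1. The highest were Apoe, Glul and Mal, at means from 170.5 to 352 TPM, which many other cells also make. Gja1, Ednrb, Gap43 and Cnp also stood above Entpd2, at means of 116, 36.5, 36.1 and 21.15 TPM. Some other genes of the list stood far lower. Gfra3, Col20a1 and Dhh had means of 1.405, 1.215 and 1.09 TPM, and Scrg1 and Kcnj10 of 0.70 and 0.175 TPM. Intervals did not overlap between pups for 6 of the 18 genes, each with a mean count of at least 100. By the same criterion 21.2% of genes with such a count were apart, and 7.25% of all Ensembl genes. Apoe, Glul and Mal were higher in pup 2, while Ednrb, Gja1 and Sox2 were lower in pup 2. Ednrb, the endothelin receptor of migrating crest cells, stood at 33.6 TPM in pup 2 and 39.4 TPM in pup 1. Sox2, which glial progenitors and gastric epithelium make, stood at 9.00 and 11.4 TPM in pups 2 and 1. Pou3f1, a factor of Schwann cells that are about to form myelin, had 17 counts in each pup and 0.11 TPM. Of 8 myelin genes, 4 were detected, with a median of 1.11 TPM in pup 2 and 0.86 TPM in pup 1. Intervals were apart for Mbp, which was higher at 19.6 TPM in pup 2 against 15.99 TPM in pup 1, and for Pmp22, which was lower at 83.0 TPM in pup 2 against 87.5 TPM in pup 1. No gene of these lists differed 2-fold between pups by the full rule, whose background is the 0.423% given above.

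Markers of cells that share some of the 8 genes were counted too. Enteric neuron genes had a median of 9.50 TPM in pup 2 and 9.13 TPM in pup 1, with 10 of 12 detected and a summed level of 176 and 170.5 TPM. Of 6 melanocyte genes, 2 were detected, the summed level was 2.71 TPM in pup 2 and 2.83 TPM in pup 1, and Tyr, Tyrp1 and Mlana had at most 2 counts in either pup. Of 6 genes of brain glia, Gfap among them, only Aqp4 and Cspg4 were detected, at means of 3.925 and 4.015 TPM. They made up most of the summed level of 8.66 TPM in pup 2 and 8.99 TPM in pup 1. Which cells of the stomach made Aqp4 and Cspg4 was not tested. The oligodendrocyte factor Olig2 had 1 count in pup 2 and 0 in pup 1. Of 4 adipocyte genes only Cidec was detected, at 26.4 TPM in pup 2 and 26.5 TPM in pup 1, and of 4 cartilage genes 0 were, with summed levels of 0.42 TPM in pup 2 and 0.37 TPM in pup 1 for cartilage. All 6 epithelial genes were detected, with summed levels of 3560 TPM in pup 2 and 3413 TPM in pup 1. All 6 fibroblast and pericyte genes were detected too, at 1355 TPM in pup 2 and 1399 TPM in pup 1. The part of epithelial or mesenchymal cells in the Erbb3 and Ngfr levels was not tested.

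**Figure D5:**
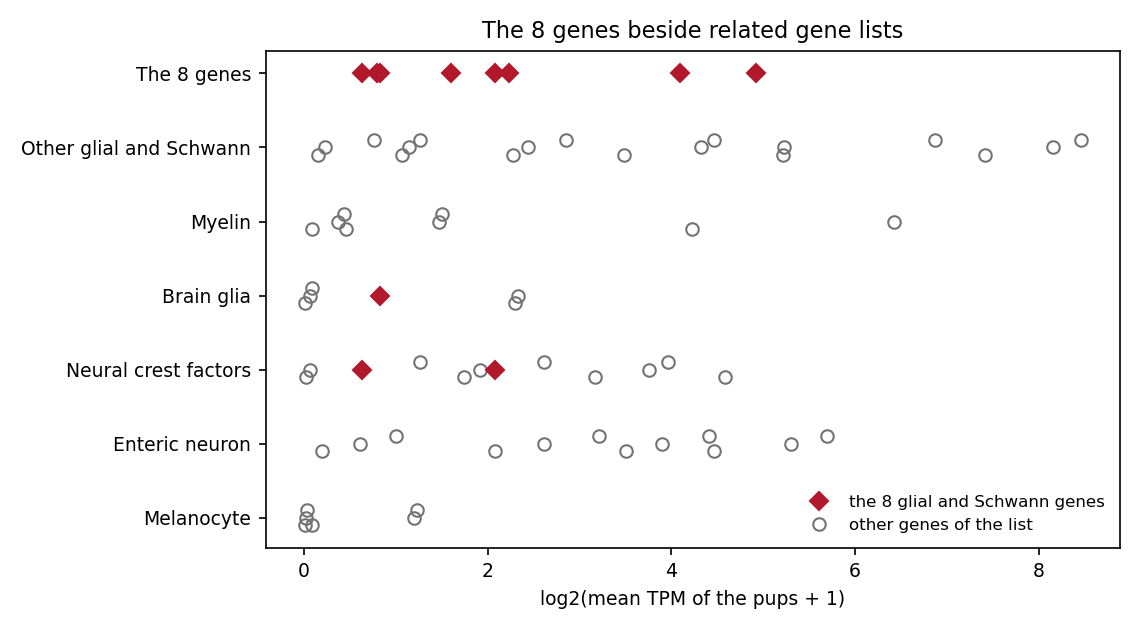
Mean level, as log2(mean TPM of the pups + 1), of the 8 genes (filled diamonds) and of the genes of related lists (open circles). Melanocyte genes lie low, with 2 of 6 detected, and enteric neuron genes reach higher, with 10 of 12 detected.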

How the data were processed

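Total RNA above 200 nucleotides, 10 ng per library, was sequenced from 2 stomachs, per the labels. The authors deposited 1 gene and 1 transcript table per library, on mm10 with GENCODE M4, per the text that accompanies the samples. Not given in the sources used here are the aligner, the quantification program and whether the libraries kept strand. Their columns carry RSEM's names. The expected counts deposited by the authors are estimated reads, not scaled for depth. The TPM values deposited by the authors are scaled to 1 total that also covers spike-ins and tRNA entries. The bounds of the deposited credibility intervals carry the same scale but do not sum to that total, and are treated as a signal. Over deeply counted genes with a single transcript, the median half-width of the intervals was 1.96 counting SDs, as for a 95% interval. Genes with several transcripts or few counts were not part of this check. For the most abundant genes the deposited TPM can lie slightly above its interval. For some low genes it lies below, as for Nrg4 in pup 2 at 0.97 TPM with an interval of 1.06 to 2.03. The deposited posterior mean of Gfap lay above its TPM, at 0.71 against 0.58 in pup 2 and 1.09 against 0.96 in pup 1. The isoform share deposited by the authors is a percent of a gene's TPM.

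Gene names and positions came from GENCODE M21, matched on IDs without version. The level of detection was 1 TPM, the pseudocount 1 TPM, and differences are pup 2 over pup 1. A count of 0 allows 3 counts, a CPM of 0.0600 in pup 2 and 0.0582 in pup 1. Floors and binomial intervals cover counting error only. The labels name 1 group, so no test and no p was computed. The code of the rule for differences was tested on simulated counts, with Poisson intervals in place of the deposited ones. Alternatives used TMM scaling (edgeR 4.0.16) and size factors (DESeq2 1.42.0) on expected counts rounded to whole numbers. Coding sequences were aligned with Biopython 1.88; the closest relative was taken by coding bases in place of protein identity. The genes and lists were chosen with earlier results of these data known. The rule named the 8 genes and their closest relatives, and allowed the 3 highest genes of a list and those at 0 counts or with intervals apart; further genes in the text were picked with their values in view. Some genes and sequences are not reported here.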

Additional observations from a re-analysis of the deposited data

How the results depend on the processing

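The number of the 8 genes detected was 8 at 0.1 TPM, at 0.5 TPM or at 10 expected counts, and 2 at 5 TPM, against 5 at 1 TPM; it was 5 in each pup alone. The median level of 2.63 TPM was 3.11 after rescaling over nuclear protein-coding genes and 3.715 over the genes with a mean of at least 1 TPM, by construction, and 2.48 to 2.77 with either pup left out. The number of genes that differed between pups was 2 by the interval criterion alone and 3 by the counting interval of reads, a rule added after seeing the data, and 0 under 5 other fold, count and interval limits. Erbb3 had a log2 ratio of 0.02 with TPM and -0.01 after TMM scaling and -0.02 with the size factors of DESeq2. The other 7 genes kept the sign of their ratio under the 4 alternatives tried. Under the posterior means, the mean share of Cdh19-201 was 84.4%, against 89.4%, which moved by more than 1 SD of the pups, and that of Gfap-201 was 59.2%, against 69.5%, which did not. No paired analysis was possible because the labels give 1 group. The genes below 1 TPM rest on 47 to 116 counts per library, which limits what can be seen of them.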

Other observations

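The transcripts of Mbp, a myelin gene chosen after its values were seen, were set apart by their start. Mbp stood at 19.6 TPM in pup 2 and 15.99 TPM in pup 1, above the other myelin genes but Pmp22. The gene has an upstream start, which gives the Golli proteins made by many cells, and a downstream start, which gives the classic proteins of myelin. Transcripts from the upstream start held 77.5% of the Mbp TPM in pup 2 and 85.9% in pup 1. Those from the downstream start stood at 4.41 TPM in pup 2 and 2.25 TPM in pup 1. How the authors' program split shared reads among the Mbp transcripts was not tested, and this difference has no replicate check.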
